A study of Mus musculus with 100 samples.

Results

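Osteoblasts are the cells that build bone, and osteocytes are the osteoblasts that become buried in the matrix they made. Osterix (Sp7) is a transcription factor that osteoblasts need to form, osteocalcin (Bglap), bone sialoprotein (Ibsp) and osteopontin (Spp1) are proteins of the bone matrix, tissue-nonspecific alkaline phosphatase (Alpl) frees phosphate for mineral, and Dmp1, Phex, Mepe, Sost and Fgf23 are genes that osteocytes use to control mineral, phosphate and Wnt signalling. None of them is exclusive to bone cells. Sp7, Ibsp, Alpl and Spp1 are also made by the hypertrophic chondrocytes of mineralizing cartilage, and a whole joint holds both tissues. The 10 genes named here were chosen by name as osteoblast and osteocyte genes, and all 10 were listed among the 17310 genes of the count table. The tissue was the whole knee joint, so fewer bone cells and less RNA per bone cell cannot be told apart.

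The study injured the right knee of 10-week-old mice by 1 compressive load of 10 to 12 N on the tibia and compared 3 strains, STR/ort, labelled highly susceptible to post-traumatic osteoarthritis, C57BL/6, labelled moderately susceptible, and MRL/MpJ, labelled not susceptible. Joints were taken from uninjured mice at 0-day (4 libraries per strain) and, from the injured and the uninjured contralateral joint, at 3 later times, 1-day, 1-week and 2-weeks after loading (5 libraries per group, 4 in the 1-week uninjured groups of MRL/MpJ and STR/ort), giving 100 libraries in 21 groups with 6182016 to 20986027 counts each. The contralateral joint is an uninjured joint of a mouse whose other knee was loaded, so it is not the same control as a 0-day joint. The labels put the 70 libraries of 0-day, 1-day and 1-week in experimental batch 1 and the 30 libraries of 2-weeks in batch 2. The batch and the 2-weeks time point therefore cannot be told apart. Strain and injury were tested within each time point, and times were compared within batch 1 alone. The labels name no transgene, deletion or drug. Joints were cut out with some soft tissue attached, and 8 fast muscle markers summed to 21927 to 89209.6 CPM (counts scaled to the same total in every library) on average per group.

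4 of the genes, Dmp1, Ibsp, Mepe and Spp1, lie side by side within 238.4 kb of chromosome 5 on the same strand. They belong to the small integrin-binding N-linked glycoproteins, acidic proteins of bone and tooth matrix. Bglap lies in a cluster of 3 near-identical osteocalcin genes on chromosome 3, and the others lie on chromosomes 4 (Alpl), 6 (Fgf23), 11 (Sost), 15 (Sp7) and X (Phex). The RefSeq promoter table on GRCm38.p6 held 9 of the 10 genes, with 12 start sites between them, and the 250 bases before each start were searched on both strands for ACCACA, the core to which RUNX factors such as the osteoblast regulator Runx2 bind. It was found before 4 of the 12 starts (33.3%), against 14% of 32851 promoter windows in the table. Those 4 windows are shown as the ones that hold the motif, written 5′ to 3′ on the gene's strand with the motif in capitals (ACCACA, or TGTGGT where it lies on the opposite strand).
Bglap, chr3:88384467-88384716, minus strand, motif 132 bases before the start: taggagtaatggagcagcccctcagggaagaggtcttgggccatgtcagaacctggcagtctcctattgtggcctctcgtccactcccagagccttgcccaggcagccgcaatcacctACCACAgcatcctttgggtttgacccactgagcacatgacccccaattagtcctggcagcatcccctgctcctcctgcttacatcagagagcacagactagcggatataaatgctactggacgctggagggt
Spp1, chr5:104434861-104435110, plus strand, motif 128 bases before the start: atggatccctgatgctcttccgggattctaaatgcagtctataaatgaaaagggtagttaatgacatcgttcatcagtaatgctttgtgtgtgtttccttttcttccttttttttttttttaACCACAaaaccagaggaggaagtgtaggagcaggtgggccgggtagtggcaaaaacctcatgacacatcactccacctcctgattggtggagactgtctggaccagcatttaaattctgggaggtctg
Mepe, chr5:104325079-104325328, plus strand, motifs 118 and 80 bases before the start: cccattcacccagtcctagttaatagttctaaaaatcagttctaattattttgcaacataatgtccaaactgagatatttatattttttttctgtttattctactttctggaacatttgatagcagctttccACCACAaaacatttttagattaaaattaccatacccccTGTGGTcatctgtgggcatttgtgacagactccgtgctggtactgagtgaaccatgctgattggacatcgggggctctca
Dmp1, chr5:104202367-104202616, plus strand, second start site, motif 164 bases before the start: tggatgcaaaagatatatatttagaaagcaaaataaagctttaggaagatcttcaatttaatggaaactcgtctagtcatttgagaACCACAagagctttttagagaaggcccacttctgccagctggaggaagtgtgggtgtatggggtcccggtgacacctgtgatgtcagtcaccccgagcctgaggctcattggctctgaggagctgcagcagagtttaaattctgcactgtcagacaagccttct
These matches are letters in a window and were not tested as binding sites. For the DLX core TAATTA, the E-box CACGTG and the GC box GGGCGG, 2, 1 and 1 of the 12 windows held a match (16.7%, 8.33% and 8.33%), against 4.84%, 6.02% and 32.7% of all windows. Among the 16110 windows of genes in the count table the shares were 2.86%, 7.65% and 51.9%, and 11.6% for ACCACA.

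Per kb of exon, Bglap was the highest of the genes in 0-day joints of MRL/MpJ and C57BL/6 (634 and 1103 CPM per kb) and Ibsp in those of STR/ort (668 CPM per kb, against 576.5 for Bglap and 566 for Spp1). Dmp1 and Mepe followed at 82 to 152 and 54.7 to 77.2 CPM per kb, Alpl at 22.7 to 33.8, and Phex, Sost and Sp7 at 8.58 to 20.2. Fgf23, the hormone by which osteocytes make the kidney excrete phosphate, stood at the limit of detection, with a median of 4 counts per library, at most 26, and 3 libraries at 0. Its values are given, but at this depth a difference between groups was hardly detectable. Over the 21 groups, mean levels spanned from 2.17-fold (Sp7) to 6.29-fold (Mepe) in the 8 genes other than Fgf23 and Bglap, and 17.5-fold in Bglap, whose assignment between osteocalcin copies is described with the 2-weeks values. For Sp7, Ibsp, Dmp1, Mepe and Bglap the lowest mean lay in batch 2 and the highest in batch 1, so these spans also cross the batches.

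**Figure D1:**
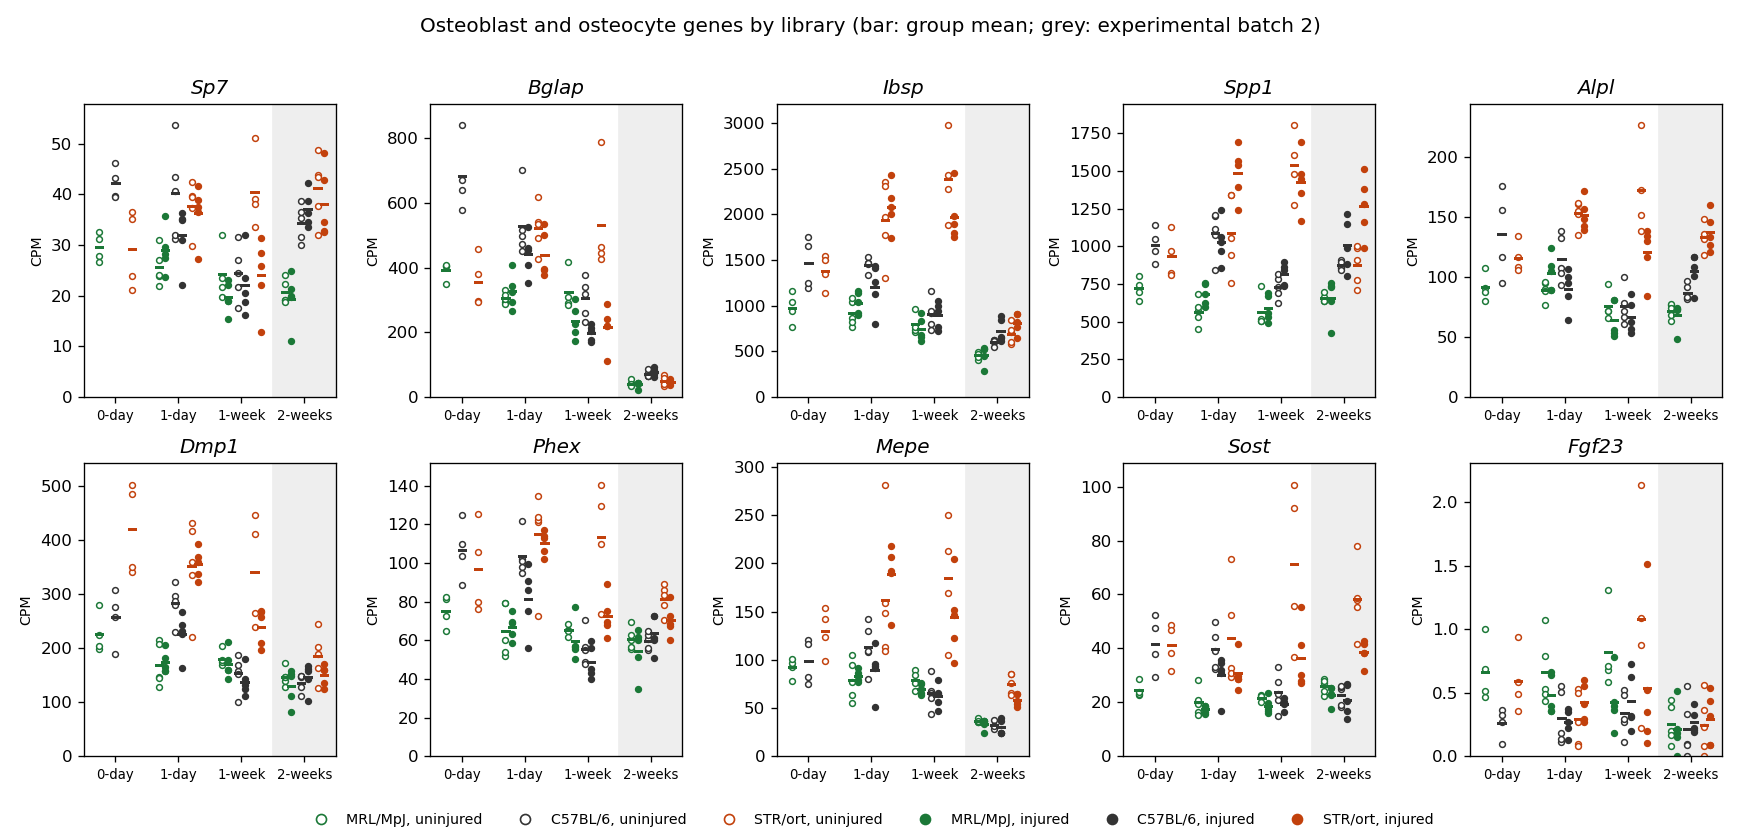
Level of each osteoblast and osteocyte gene in every library (y axis, CPM from 0; x axis, time of collection), with MRL/MpJ in green, C57BL/6 in black, STR/ort in orange, open symbols for uninjured and filled symbols for injured joints, bars for group means and grey for experimental batch 2. In batch 1, STR/ort after 0-day stands highest for Ibsp, Dmp1, Mepe and Alpl (1-week uninjured Ibsp 1881 to 2974 CPM), and Bglap lies between 21.8 and 92.2 CPM in all 2-weeks libraries.

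Before injury the strains already differed, and 6 of the 8 calls were differences from MRL/MpJ. Of 30 tests at 0-day (10 genes, 3 strain pairs), 8 passed at an adjusted p below 0.05 and a fold above 1.5, 7 of them higher in the first-named strain and 1 lower, and 20 had an unadjusted p below 0.05 (edgeR's quasi-likelihood test with Benjamini-Hochberg adjustment over all 17310 genes, which gave all adjusted p-values here). Dmp1, an acidic matrix protein of osteocytes that promotes mineralization and restrains Fgf23, measured 341, 484, 502 and 350.4 CPM in the 4 STR/ort joints, 189.9, 308, 258 and 277 CPM in C57BL/6 and 199, 203, 224 and 280.0 CPM in MRL/MpJ. Every STR/ort joint was above every joint of the other 2 strains. The log2 difference was 0.89 ± 0.15 (SE, n = 4 and 4, adjusted p = 0.000141) over MRL/MpJ and 0.66 ± 0.15 (adjusted p = 0.00209) over C57BL/6.

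Sost encodes sclerostin, by which osteocytes block Wnt signalling and hold back bone formation. It measured 22.6, 28.6, 23.1 and 23.8 CPM in MRL/MpJ, 29.2, 47.7, 37.9 and 52.4 CPM in C57BL/6 and 38.4, 48.7, 46.7 and 31.7 CPM in STR/ort at 0-day. All MRL/MpJ joints were below those of the other strains, and C57BL/6 and STR/ort overlapped. It was higher by a log2 difference of 0.81 ± 0.16 in C57BL/6 (adjusted p = 0.000674) and 0.76 ± 0.16 in STR/ort (adjusted p = 0.00138) than in MRL/MpJ.

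Bglap set C57BL/6 apart at 0-day, with 670, 639, 577 and 839 CPM against 406, 404, 349 and 408 CPM in MRL/MpJ and 379, 456, 296 and 294 CPM in STR/ort. No C57BL/6 joint overlapped those of the other strains. The log2 difference was 0.84 ± 0.13 for C57BL/6 over MRL/MpJ (adjusted p = 6.74e-05) and -0.97 ± 0.13 for STR/ort over C57BL/6 (adjusted p = 1.93e-05). Ibsp (0.63 ± 0.14, adjusted p = 0.00164) and Alpl (0.62 ± 0.15, adjusted p = 0.00293) were also higher in C57BL/6 than MRL/MpJ, while Sp7, Phex and Spp1 passed the adjusted p in that pair (0.00356, 0.00378 and 0.000946) with folds under 1.5 (1.47, 1.46 and 1.45). The Ibsp call was lost without any of 3 libraries and the Alpl call without any of 4, both were lost with 1 factor of unwanted variation (log2 0.52 and 0.48), and Dmp1 in STR/ort over C57BL/6 was lost without any of 3 libraries (lowest log2 value 0.54). Among all genes the same calls were made for 9.64% higher in C57BL/6 than in MRL/MpJ, 8.34% higher in STR/ort than in MRL/MpJ, and 7.82% higher and 5.99% lower in STR/ort than in C57BL/6, beside 4, 2, 1 and 1 of the 10 genes. Of 30 other bone genes in the table, 18 were higher in C57BL/6 than MRL/MpJ and none lower, led by Tnn, Omd, Enpp1 and Sparc. The cartilage markers (8 of 8 genes in the table) summed to 6510 CPM in C57BL/6, 4647 CPM in STR/ort and 3337 CPM in MRL/MpJ, and the fast muscle markers (8 of 8) to 47263, 84480 and 87145 CPM. The tendon and synovial markers ran from 1310 to 1791 CPM in MRL/MpJ, 2363 to 3896 CPM in C57BL/6 and 3204 to 6839 CPM in STR/ort. Of these 7 genes, 7 were called higher in C57BL/6 and 6 in STR/ort than in MRL/MpJ. The erythroid markers averaged 5045, 3248 and 2242 CPM in that order, and all 6 were called lower in STR/ort than MRL/MpJ. All 6 B cell markers were called higher in C57BL/6 than MRL/MpJ. Their part in the strain differences was not tested. With 2 factors of unwanted variation in the fit (described with the 1-week values), 7 of the 8 calls were lost, and Alpl, Ibsp and Sost turned in sign between C57BL/6 and MRL/MpJ. The same fit made 5 calls that the fit without factors did not, with Alpl (log2 0.77), Ibsp (0.75), Mepe (1.36) and Sost (0.91) higher in STR/ort than C57BL/6 and Mepe lower in C57BL/6 than MRL/MpJ (-1.20). With 1 factor Phex was called higher in C57BL/6 than MRL/MpJ (0.61) and Sp7 lower in STR/ort than C57BL/6 (-0.60).

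In uninjured joints after 0-day, the genes set MRL/MpJ apart at 1-day and STR/ort at 1-week. At 1-day, 9 of the 10 were higher in STR/ort than MRL/MpJ and 7 were higher in C57BL/6 than MRL/MpJ, against 13.1% and 9.00% of all genes, while Fgf23 was lower in both pairs (background 9.54% and 5.81%). None of the 10 passed between STR/ort and C57BL/6, although 4 had an unadjusted p below 0.05, and 10.5% of all genes were called in that pair. Spp1, an integrin-binding matrix protein made by osteoblasts, osteoclasts and macrophages, averaged 566 ± 85.4 CPM (SD, n = 5) in MRL/MpJ, 1089 ± 148 CPM in C57BL/6 and 1088 ± 254 CPM in STR/ort. The C57BL/6 and STR/ort values overlapped, and both lay above MRL/MpJ (log2 difference 0.98 ± 0.13, adjusted p = 8.56e-07, and 0.99 ± 0.13, adjusted p = 3.52e-07). The Fgf23 calls rest on means of 0.664, 0.298 and 0.295 CPM, and DESeq2 did not make them (adjusted p = 0.0604 for STR/ort and 0.0565 for C57BL/6 against MRL/MpJ). Each was also lost without any of 5 libraries, as was Sp7 in STR/ort over MRL/MpJ (log2 0.60), and Sp7 in C57BL/6 over MRL/MpJ was lost without the second C57BL/6 joint (log2 0.54). With 1 or 2 RUVg factors (described with the 1-week values) 2 of the 10 calls between STR/ort and MRL/MpJ were kept, Bglap and Dmp1, and 4 and 5 of the 8 between C57BL/6 and MRL/MpJ. In the 1-day uninjured joints all 8 cartilage markers, all 4 hypertrophic cartilage markers, 6 of 8 osteoclast markers and all 6 B cell markers were also called higher in each of these strains than in MRL/MpJ. The osteoclast sums ran from 894 to 1360 CPM in MRL/MpJ, 1556 to 2014 CPM in C57BL/6 and 972 to 1673 CPM in STR/ort, so that C57BL/6 did not overlap MRL/MpJ. STR/ort lay below MRL/MpJ in fast muscle (32251 to 56406 against 66338 to 86453 CPM) and erythroid markers (1839 to 2910 against 4708 to 5715 CPM). It lay above MRL/MpJ in tendon and synovial markers (7433 to 11041 against 1729 to 2676 CPM). Their part was not tested.

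At 1-week all 10 genes were higher in uninjured STR/ort joints than in C57BL/6 and 9 were higher than in MRL/MpJ (not Fgf23), against 13.1% and 13.7% of all genes. None was called between C57BL/6 and MRL/MpJ, where 2 had an unadjusted p below 0.05 and 8.53% of all genes passed. The median log2 difference of the 10 genes was 1.19 over C57BL/6 and 1.07 over MRL/MpJ, and that of all genes 0.01 in both. Ibsp, an acidic glycoprotein that binds cells and mineral, measured 2432, 1881, 2273 and 2974 CPM in STR/ort. It measured 917, 801, 937, 736 and 1159 CPM in C57BL/6 and 715, 738, 768 and 961 CPM in MRL/MpJ. The lowest STR/ort joint stood above the highest of the other strains, with a log2 difference of 1.41 ± 0.15 over C57BL/6 (adjusted p = 8.6e-09) and 1.61 ± 0.16 over MRL/MpJ (adjusted p = 2.99e-09).

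Sost in the same uninjured joints spread widely in STR/ort, at 92.2, 36.7, 101 and 55.6 CPM, against 23.2, 15.1, 20.8, 27.6 and 33.0 CPM in C57BL/6 and 22.7, 21.9, 22.4 and 20.1 CPM in MRL/MpJ. No STR/ort joint overlapped the others, and the log2 differences were 1.59 ± 0.22 and 1.74 ± 0.24 (adjusted p = 1.09e-06 and 9.27e-07). Mepe, an osteocyte protein whose cleaved fragment slows mineralization, was 1.52 ± 0.20 higher over C57BL/6 on the log2 scale and Spp1 1.47 ± 0.14 higher over MRL/MpJ (adjusted p = 4.13e-07 and 8.82e-10). Differences for Sp7, Bglap, Dmp1, Phex and Alpl ran from 0.72 to 1.21. Bglap in STR/ort rested on 1 library at 787 CPM beside 426, 444 and 463 CPM, and without it neither Bglap difference was called (log2 0.47 over MRL/MpJ and 0.56 over C57BL/6). Likewise Fgf23 over C57BL/6 (log2 1.73 ± 0.57, adjusted p = 0.0142) was not called without the third STR/ort joint (log2 1.07). Of the 30 other bone genes, 21 were higher and none lower in STR/ort than C57BL/6, led by Tnfrsf11b, Dkk1, Dlx3 and Vdr.

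**Figure D2:**
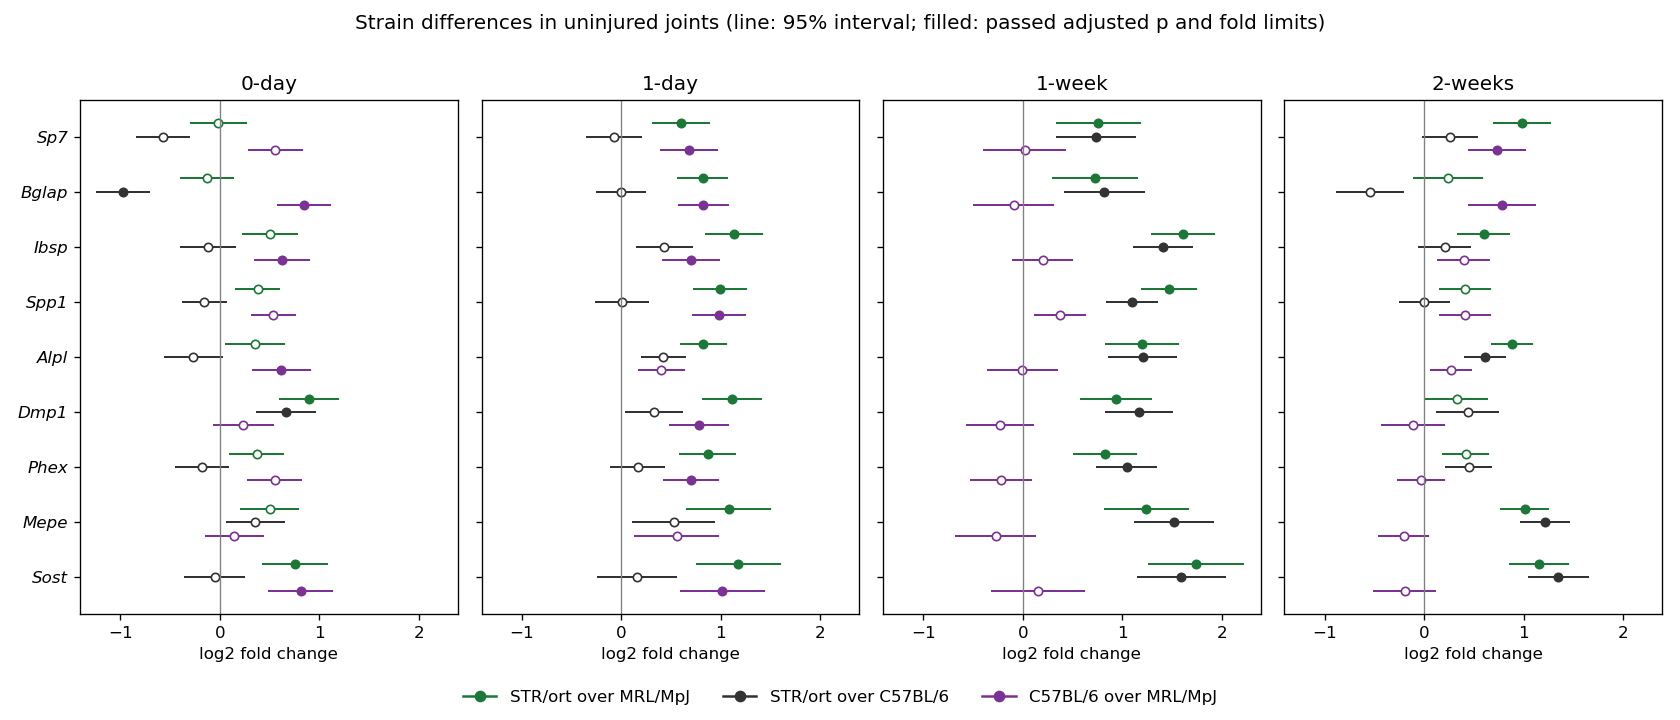
Log2 fold changes between strains in uninjured joints at each time (x axis) for the 9 genes other than Fgf23 (y axis), with 95% intervals as lines and filled symbols for calls. Both STR/ort comparisons lie right of 0 for all 9 genes at 1-week (0.72 to 1.74), C57BL/6 over MRL/MpJ does so at 1-day (0.40 to 1.01), and at 2-weeks the STR/ort differences of Sost and Mepe are between 1.01 and 1.35.

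Several tissues moved with these strain differences in batch 1. In 1-week uninjured joints the fast muscle markers summed to 29465 to 57201 CPM in STR/ort, 44898 to 78134 CPM in C57BL/6 and 67375 to 98144 CPM in MRL/MpJ, and the cartilage markers to 5994 to 7906, 1791 to 4196 and 2079 to 3395 CPM. The tendon and synovial fibroblast markers (7 of 7 in the table) ran from 7114 to 20348 CPM in STR/ort against 1252 to 1783 and 1601 to 1741 CPM. None of these marker genes was at 0 in any library. Of the skin list only Krt10 and Dsp were in the table, and they summed to 2.12 to 8.85 CPM on average per group. Then 1 or 2 factors of unwanted variation were added to the fit, estimated from 25 housekeeping genes (RUVg, the approach of the study's own pipeline). With them the 1-week strain calls in injured and uninjured joints went from 30 of 60 to 11 and 8, and those of 1-day from 30 to 8 and 9. The 1-week totals include calls that the fit without factors did not make, so fewer of its 30 calls were kept. Ibsp and Spp1 kept their calls over C57BL/6 in 1-week uninjured joints under both settings, whereas Bglap and Sp7 turned in sign. Over MRL/MpJ in the same joints, 1 factor kept Ibsp and Spp1. With 2 factors Spp1 alone of 9 calls was kept, Ibsp was lost (log2 0.45, adjusted p = 0.337) and 6 calls turned in sign. Some calls were made under these settings alone. In 1-week injured joints with 1 factor, Sp7 was lower in STR/ort than in C57BL/6 (log2 -0.93, adjusted p = 0.00371) and MRL/MpJ (-0.96, adjusted p = 0.0079), and Bglap was lower than in both (-0.70, adjusted p = 0.0469, and -1.09, adjusted p = 0.00642). With 2 factors Sp7 was again lower than in C57BL/6 (-0.80, adjusted p = 0.0266). Between C57BL/6 and MRL/MpJ, 2 factors gave lower Mepe and Phex in C57BL/6 in uninjured joints (-0.84 and -0.65) and lower Dmp1 and Phex in injured ones (-0.59 and -0.64). The first factor itself lay 83% between strains at 1-week and 78.1% at 1-day and correlated with the fast muscle sum at -0.891 and -0.892 (28 and 30 libraries). Which share of the strain difference belongs to the bone genes and which to the makeup of the joint was not tested.

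**Figure D3:**
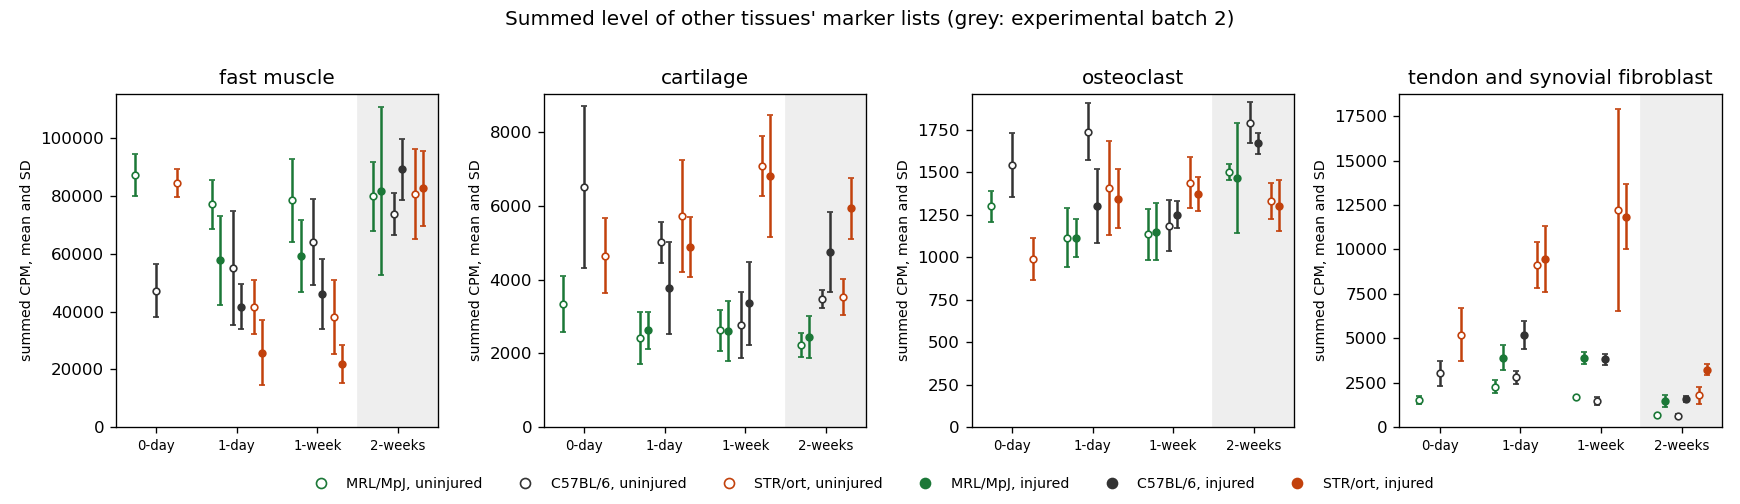
Summed CPM of marker lists of other tissues (y axis, mean and SD from 0; x axis, time), with colours and symbols as for the genes by library. STR/ort joints of 1-day and 1-week are low in fast muscle markers (21927 to 41593 CPM on average) and high in tendon and synovial markers (9119 to 12232 CPM), and the strains lie close in fast muscle markers in uninjured joints at 2-weeks (73860 to 80564 CPM).

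At 2-weeks, where the fast muscle markers of the uninjured joints overlapped between strains (58789 to 97683 CPM in STR/ort, 64606 to 83885 CPM in C57BL/6 and 69212 to 96831 CPM in MRL/MpJ), a smaller set was higher in STR/ort. The tendon and synovial markers ran from 1389 to 2543 CPM in STR/ort against at most 757 CPM in C57BL/6 and 779 CPM in MRL/MpJ, the erythroid markers averaged 1818 CPM against 3385 and 4064 CPM, and the cartilage markers, which overlapped with C57BL/6, ran from 2978 to 4287 CPM against 1752 to 2509 CPM in MRL/MpJ. Their part was not tested. Alpl, Ibsp, Mepe, Sost and Sp7 were higher than in MRL/MpJ, and Alpl, Mepe and Sost higher than in C57BL/6, against 7.97% and 4.92% of all genes. Sost measured 57.9, 41.8, 78.1, 55.2 and 58.8 CPM in STR/ort, 24.9, 18.3, 25.5, 19.2 and 26.2 CPM in C57BL/6 and 28.6, 22.2, 27.3, 28.0 and 24.2 CPM in MRL/MpJ. The lowest STR/ort joint was above every joint of the other strains, and the log2 differences were 1.35 ± 0.15 (adjusted p = 5.1e-08) and 1.15 ± 0.15 (adjusted p = 3.66e-07). Mepe measured 65.7, 63.1, 84.8, 76.2 and 85.6 CPM in STR/ort and at most 39.8 CPM in the others. It did not overlap them either (log2 1.22 ± 0.12 over C57BL/6, adjusted p = 6.87e-09, and 1.01 ± 0.12 over MRL/MpJ, adjusted p = 1.06e-07). Sost, Mepe and Alpl kept their calls in both pairs with 1 and with 2 RUVg factors. Ibsp over MRL/MpJ (log2 0.60) was lost with 1 factor and without any of 3 libraries, and Alpl over C57BL/6 (log2 0.61) without the third STR/ort joint. With 2 factors Phex and Sp7 were also called over C57BL/6 (log2 0.67 and 0.60).

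C57BL/6 exceeded MRL/MpJ at 2-weeks in Bglap (0.78 ± 0.17, adjusted p = 0.000913) and Sp7 (0.73 ± 0.14, adjusted p = 0.000304), beside 6.01% of all genes. These 2 calls were lost with 1 RUVg factor (log2 0.57 and 0.55) and kept with 2. Sp7 stood at 31.6, 35.3, 30.0, 38.7 and 36.5 CPM in C57BL/6 and at 19.2, 19.2, 24.1, 22.3 and 18.8 CPM in MRL/MpJ. The groups did not overlap. In these joints C57BL/6 also lay above MRL/MpJ in cartilage (3207 to 3749 against 1752 to 2509 CPM) and hypertrophic cartilage markers (856 to 918 against 583 to 711 CPM). The same held for osteoclast (1635 to 1962 against 1429 to 1536 CPM) and B cell markers (305 to 340 against 93.6 to 131 CPM). The other lists overlapped. Their part was not tested.

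Injured joints repeated part of this order. At 1-day, 6 genes were higher in STR/ort than MRL/MpJ (Ibsp, Dmp1, Sost, Phex, Mepe and Spp1), 4 higher than C57BL/6 (Ibsp, Dmp1, Mepe and Alpl) and 2 higher in C57BL/6 than MRL/MpJ (Sost and Spp1), against 10.2%, 4.89% and 10.0% of all genes. Of these, Dmp1 in STR/ort over C57BL/6 was lost without 1 library and Spp1 in C57BL/6 over MRL/MpJ without any of 3. Housekeeping scaling lost both (log2 0.54 in each) and Phex in STR/ort over MRL/MpJ (0.55). With 1 or 2 RUVg factors, Spp1 in STR/ort over MRL/MpJ and Alpl in STR/ort over C57BL/6 alone kept their 1-day calls. At 1-week, 5 genes were higher in STR/ort than MRL/MpJ (Ibsp, Sost, Mepe, Alpl and Spp1) and 6 higher than C57BL/6 (the same 5 and Dmp1), against 15.0% and 13.3%. None was called between C57BL/6 and MRL/MpJ, with 1 at an unadjusted p below 0.05 and 9.47% of all genes called. Of the 1-week calls, 1 RUVg factor kept Ibsp over both strains and Spp1 over MRL/MpJ, and 2 factors kept none. At 2-weeks, 6 were higher in STR/ort than MRL/MpJ (Alpl, Ibsp, Mepe, Sost, Sp7 and Spp1) and 5 higher in C57BL/6 than MRL/MpJ (Bglap, Sp7, Ibsp, Alpl and Spp1), against 11.0% and 7.31%. Of those 5, Ibsp, Alpl and Spp1 were lost with 1 RUVg factor (log2 0.55, 0.57 and 0.53) and without either the fourth MRL/MpJ joint, the lowest of its group in 9 of the 10 genes, or the first C57BL/6 joint (lowest log2 values 0.49, 0.50 and 0.48), and Spp1 also without the fourth C57BL/6 joint and with 2 factors. Mepe and Sost were higher and Bglap lower in STR/ort than C57BL/6, against 5.40% and 4.96%. Mepe averaged 58.5 ± 5.84 CPM (SD, n = 5) in injured STR/ort joints at 2-weeks, 30.0 ± 7.66 CPM in C57BL/6 and 33.6 ± 5.21 CPM in MRL/MpJ, and its lowest STR/ort value of 51.3 CPM exceeded the highest of 40.2 CPM elsewhere. Marker lists of other tissues differed between the same joints. The cartilage markers of injured joints ran from 4085 to 6140 CPM in STR/ort against 1910 to 3211 CPM in MRL/MpJ at 1-day, from 4532 to 8408 against 1715 to 3683 CPM at 1-week and from 4758 to 6864 against 1591 to 2920 CPM at 2-weeks. The tendon and synovial markers ran from 6665 to 11698 against 2906 to 4890 CPM, from 9905 to 14012 against 3406 to 4226 CPM and from 2732 to 3571 against 903 to 1800 CPM. Neither list overlapped at any of these times. The tendon and synovial markers of C57BL/6 (4267 to 5916, 3539 to 4172 and 1370 to 1838 CPM) lay below STR/ort each time, and its cartilage markers overlapped STR/ort. At 2-weeks the cartilage markers of C57BL/6 (3102 to 5792 CPM) lay above MRL/MpJ. The fast muscle markers ran from 14868 to 32706 CPM in STR/ort and 47521 to 79425 CPM in MRL/MpJ at 1-week, and overlapped at 2-weeks. Their part was not tested.

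Over the 70 combinations of gene, time and joint, STR/ort had the highest mean in 52 and MRL/MpJ the lowest in 47. The highest strain was the same in 66 when CPM was computed without the TMM scaling factors. At 0-day STR/ort was highest in Dmp1 and Mepe alone and MRL/MpJ in Fgf23. C57BL/6 was highest there in Bglap, Sp7, Ibsp, Sost, Phex, Alpl and Spp1. In 1-day uninjured joints C57BL/6 was highest for Sp7 and, with the TMM factors alone, for Spp1. MRL/MpJ was highest for Fgf23 in both joints at 1-day and in uninjured joints at 2-weeks. Bglap had its highest mean in C57BL/6 at 0-day and in both joints at 2-weeks, and in MRL/MpJ in 1-week injured joints. At 1-day C57BL/6 was also highest for Bglap in both joints, by less than the spread between libraries, and STR/ort was highest without the TMM factors.

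Injury was tested in each strain at each time. Of 90 tests of injured against uninjured joints, 6 passed, all lower in the injured joint, and 22 had an unadjusted p below 0.05. Over the same 9 comparisons, 1.16% to 9.21% of all genes were called in either direction, and 3 to 612 of the 17310 genes were called lower. At 1-day no gene passed in any strain, with 1, 5 and 3 of the 10 at an unadjusted p below 0.05 in MRL/MpJ, C57BL/6 and STR/ort, beside 2.02%, 5.60% and 4.31% of all genes called. Alpl in C57BL/6 and Spp1 in STR/ort passed the adjusted p at 1-day without reaching the fold (log2 -0.35, adjusted p = 0.0267, and 0.43, adjusted p = 0.0324). Spp1 in STR/ort measured 1568, 1692, 1392, 1542 and 1239 CPM in injured and 946, 1342, 1057, 756 and 1339 CPM in uninjured joints, which overlapped. Sost in STR/ort had a log2 value of -0.54 at 1-day and was called with 1 RUVg factor (-0.60, adjusted p = 0.0441).

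At 1-week, 4 genes fell in injured STR/ort joints, against 3.54% of all genes called lower. Bglap fell most, from 787, 426, 444 and 463 CPM in uninjured to 288, 239.7, 110.4, 220.4 and 218 CPM in injured joints. The groups did not overlap, and the log2 change was -1.31 ± 0.20 (n = 5 and 4, adjusted p = 1.94e-05). Sp7 measured 51.1, 33.6, 39.1 and 38.1 CPM in uninjured and 28.3, 25.9, 12.7, 22.2 and 31.4 CPM in injured joints, again without overlap (-0.76 ± 0.20, adjusted p = 0.00625).

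Sost fell from 92.2, 36.7, 101 and 55.6 CPM to 27.7, 41.1, 27.2, 30.3 and 55.5 CPM in those joints, and Phex, a membrane peptidase that keeps phosphate in the body, from 141, 73.7, 129.5 and 109.9 CPM to 69.7, 67.9, 61.4, 75.3 and 89.2 CPM. In both genes the second uninjured joint lay within the range of the injured ones. Log2 changes were -0.99 ± 0.22 (adjusted p = 0.00135) and -0.65 ± 0.15 (adjusted p = 0.00198), and the Phex call was lost without the first or the third uninjured library. Dmp1 and Alpl passed the adjusted p without the fold (-0.52 ± 0.17 in each, adjusted p = 0.0261 and 0.0268), while Ibsp, Spp1, Mepe and Fgf23 did not pass (log2 -0.28, -0.12, -0.36 and -1.01, adjusted p = 0.183, 0.574, 0.198 and 0.178). The matrix genes thus gave unequal values, from -1.31 for Bglap to -0.12 for Spp1 (95% intervals -1.71 to -0.91 and -0.37 to 0.13).

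C57BL/6 gave 1 call at 1-week, against 1.07% of all genes lower. Bglap measured 259.8, 319, 230.2, 338 and 377 CPM in uninjured and 203, 175, 212, 170.4 and 225 CPM in injured joints, which did not overlap (log2 -0.60 ± 0.19, adjusted p = 0.0386). Its fold was near the limit, and the call was lost when any of 7 of the 10 libraries was left out. From uninjured to injured joints the slow muscle markers went from 292 to 828 CPM down to 79.7 to 189 CPM and the fat markers from 503 to 628 CPM down to 355 to 491 CPM. The tendon and synovial markers went from 1252 to 1783 CPM up to 3539 to 4172 CPM. None of these lists overlapped, the other lists did, and their part was not tested. In MRL/MpJ no gene passed at 1-week (1 at an unadjusted p below 0.05, 3.13% of all genes called), and Bglap had a log2 value of -0.45 ± 0.20 (adjusted p = 0.292), which was called with 1 RUVg factor (-0.63, adjusted p = 0.0279). The other 30 bone genes split at 1-week in STR/ort: 6 rose and 11 fell, and those with the smallest adjusted p were Tnn, Enpp1 and Pdpn, which rose, and Bglap2, which fell. Enpp1, which makes the mineralization inhibitor pyrophosphate, rose by 1.65 ± 0.16 on the log2 scale (adjusted p = 8.04e-09). The RUVg settings kept all 4 STR/ort calls and the C57BL/6 call, and housekeeping scaling lost the C57BL/6 call (log2 -0.57, adjusted p = 0.046). In STR/ort the same settings added a fall of Alpl with 1 factor and falls of Alpl, Dmp1, Ibsp and Mepe with 2 (log2 -0.60 to -0.76).

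**Figure D4:**
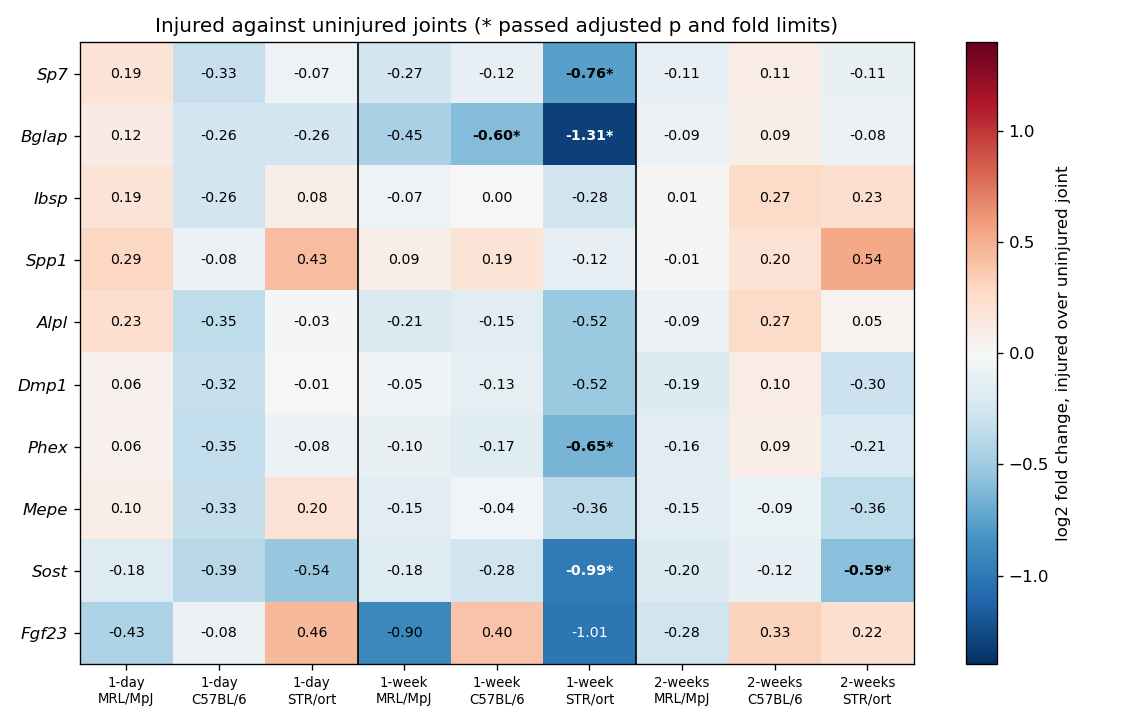
Log2 fold change of injured over uninjured joints for each gene (rows) in each strain and time (columns), red for higher and blue for lower in the injured joint, with asterisks for calls. The 6 calls are all negative, and the STR/ort 1-week column is negative for all 10 genes (-0.12 to -1.31).

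In the same 1-week STR/ort joints the fast muscle markers ran from 29465 to 57201 CPM in uninjured and from 14868 to 32706 CPM in injured joints, the cartilage markers from 5994 to 7906 and 4532 to 8408 CPM, and the osteoclast markers averaged 1440 ± 148 and 1375 ± 100 CPM. The cartilage and osteoclast lists overlapped between joints. The marrow neutrophil markers did not, at 7892 to 10363 CPM in uninjured and 4739 to 6767 CPM in injured joints, and the means of the erythroid (2665 and 1841 CPM), B cell (165 and 113 CPM) and slow muscle markers (388 and 166 CPM) were lower in injured joints with overlapping ranges. The part of marrow and muscle in the lower bone gene values was not tested. As levels relative to Ibsp in the same library, Bglap stood at a log2 ratio of -2.20 ± 0.44 in uninjured and -3.25 ± 0.51 in injured STR/ort joints (SD, a scale chosen after seeing the data).

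At 2-weeks, Sost was the single call, in STR/ort (0.318% of all genes were lower there). It measured 57.9, 41.8, 78.1, 55.2 and 58.8 CPM in uninjured joints and 41.6, 31.7, 42.8, 38.4 and 38.2 CPM in injured ones. Only the uninjured joint at 41.8 CPM fell within the injured range (log2 -0.59 ± 0.14, adjusted p = 0.00461). The injured and uninjured joints of batch 2 came from the same animals by the labels, and Sost was lower in the injured joint of 5 of 5 STR/ort animals. With the animal as a block the log2 change was -0.58 (adjusted p = 0.00107), which fell just under the fold limit of 1.5. The call was also lost with 1 RUVg factor (log2 -0.58) and without any of 4 libraries, injured replicates 2 and 5 and uninjured replicates 3 and 5 (smallest change -0.46). Spp1 went the other way in STR/ort, from 711, 909, 775, 987 and 1003 CPM to 1163, 1284, 991, 1384 and 1512 CPM, with an adjusted p of 0.00355 and a fold under the limit (log2 0.54 ± 0.13). It was higher in the injured joint of 5 of 5 animals (0.53, adjusted p = 0.00161 with the animal as a block). Ibsp was likewise higher in 5 of 5 animals, and Mepe, Phex and Dmp1 were lower in 5 of 5. With the animal as a block Mepe passed the adjusted p without the fold (log2 -0.35, adjusted p = 0.0281), and Ibsp, Phex and Dmp1 did not pass (0.23, -0.21 and -0.27, adjusted p = 0.194, 0.282 and 0.144). In these joints the cartilage markers ran from 2978 to 4287 CPM in uninjured and 4758 to 6864 CPM in injured joints and the tendon and synovial markers from 1389 to 2543 and 2732 to 3571 CPM, both without overlap. The erythroid (1818 and 1320 CPM) and marrow neutrophil means (7661 and 6213 CPM) were lower in injured joints. Their part was not tested. No gene passed in C57BL/6 or MRL/MpJ at 2-weeks, with 2 and 0 at an unadjusted p below 0.05 and 2.95% and 1.16% of all genes called. In C57BL/6, Ibsp and Alpl were higher in the injured joint of 5 of 5 animals, and neither passed with the animal as a block (log2 0.26 in each, adjusted p = 0.17 and 0.078).

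The difference in injury response between strains was tested itself and gave no call in 90 interaction tests by edgeR or DESeq2, with 17 at an unadjusted p below 0.05. The shares of all genes called were 0.162%, 2.66% and 0.318% at 1-day, 0.884%, 0.491% and 0% at 1-week and 0.451%, 0.0462% and 0% at 2-weeks for STR/ort against MRL/MpJ, STR/ort against C57BL/6 and C57BL/6 against MRL/MpJ. Bglap at 1-week had an interaction of -0.86 ± 0.29 for STR/ort against MRL/MpJ (adjusted p = 0.153) and -0.71 ± 0.28 against C57BL/6 (adjusted p = 0.295). By this fit the falls in STR/ort were not shown to differ from those of the other strains. With the replicate number as a block, 3 interactions passed, Bglap (-0.75, adjusted p = 0.0342) and Sp7 (-0.78, adjusted p = 0.0223) against C57BL/6 and Bglap against MRL/MpJ (-0.78, adjusted p = 0.0361). At 1-week the deviations of same-numbered joints correlated at 0.162 to 0.370 in STR/ort, 0.0845 to 0.177 in MRL/MpJ and -0.0353 to 0.431 in C57BL/6, so that every pair exceeded 0.1 in STR/ort alone. Sost interactions were -0.81 ± 0.32 and -0.70 ± 0.31 in the same pairs (adjusted p = 0.26 and 0.366).

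Across time within batch 1, the most calls among the 10 genes came in C57BL/6 uninjured joints, although over all genes more were called from 0-day to 1-week in STR/ort (12.6%) than in C57BL/6 (5.54%). In C57BL/6, from 0-day to 1-week 8 of the 10 genes fell, against 4.49% of all genes lower. Phex went from 88.8, 125, 104 and 109.7 CPM to 56.7, 49.0, 55.2, 47.5 and 70.5 CPM and Bglap from 577 to 839 CPM down to 230.2 to 377 CPM. Neither gene overlapped between the times (log2 -0.95 ± 0.14, adjusted p = 4.76e-05, and -1.17 ± 0.14, adjusted p = 6.44e-06). Sp7, Ibsp, Dmp1, Sost, Mepe and Alpl fell by 0.60 to 0.86 on the log2 scale, with Mepe near the limits (adjusted p = 0.0444) and not called without any of 7 libraries. Spp1 passed the adjusted p alone (log2 -0.48, adjusted p = 0.00395), and of the other bone genes 19 of 30 fell and none rose, with the smallest adjusted p-values in Bglap2, Dlx3 and Dkk1. The cartilage markers summed to 6510 ± 2196 CPM at 0-day and 2773 ± 892 CPM at 1-week in these joints and the fast muscle markers to 47263 ± 9139 and 63950 ± 14928 CPM, both with overlap. Between the same times the osteoclast markers went from 1331 to 1757 CPM down to 942 to 1319 CPM and the tendon and synovial markers from 2363 to 3896 CPM down to 1252 to 1783 CPM. The erythroid markers went from 2988 to 3560 CPM up to 3983 to 5635 CPM and the slow muscle markers from 82.5 to 141 CPM up to 292 to 828 CPM. None of these 4 lists overlapped between the times. Their part was not tested.

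STR/ort uninjured joints went the other way for Ibsp and Spp1. Ibsp rose from 1351, 1544, 1499 and 1135 CPM at 0-day to between 1881 and 2974 CPM at 1-week (log2 0.77 ± 0.17, adjusted p = 0.00126) and Spp1 from 826, 967, 1131 and 808 CPM to 1609, 1481, 1804 and 1271 CPM (0.70 ± 0.16, adjusted p = 0.00211). Neither overlapped, 4.73% of all genes were higher, and neither call held with an RUVg factor (log2 0.45 and 0.55 with 1 factor). Spp1 was also not called with housekeeping scaling (log2 0.57). The related Dmp1 and Mepe were not called (log2 -0.32 ± 0.19, adjusted p = 0.246, and 0.49 ± 0.27, adjusted p = 0.195). In these joints the fast muscle markers ran from 81162 to 91520 CPM at 0-day and from 29465 to 57201 CPM at 1-week and the tendon and synovial markers from 3204 to 6839 and from 7114 to 20348 CPM, both without overlap. The cartilage markers ran from 3898 to 6135 and from 5994 to 7906 CPM, with overlap. The osteoclast markers ran from 845 to 1148 CPM and from 1297 to 1585 CPM, without overlap. Their part was not tested. MRL/MpJ uninjured joints gave no call at 1-day or 1-week against 0-day (4 and 3 genes at an unadjusted p below 0.05, 0.156% and 0% of all genes called). None of the 10 passed from 0-day to 1-day in C57BL/6 (1 at an unadjusted p below 0.05, background 0.0462%) or STR/ort (3, background 8.89%).

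From 1-day to 1-week in injured joints, Bglap fell in C57BL/6 (log2 -1.16 ± 0.14, adjusted p = 1.2e-06) and in STR/ort (-1.03 ± 0.20, adjusted p = 0.000287). In C57BL/6 it went from between 353 and 524 CPM to between 170.4 and 225 CPM, and in STR/ort from between 377 and 535 CPM to between 110.4 and 288 CPM. C57BL/6 had 4 falls (Bglap, Dmp1, Phex and Sost, background 2.69%), STR/ort 3 (Bglap, Phex and Sp7, background 4.04%) and MRL/MpJ 1 (Alpl, background 1.01%, log2 -0.66 ± 0.12, adjusted p = 0.000362). The Dmp1 and Sost calls in C57BL/6 were lost with housekeeping scaling (log2 -0.58 and -0.51) and with 1 or 2 RUVg factors (Dmp1 -0.56 and -0.51, Sost -0.50 and -0.36), and Sost also without any of 4 libraries. The Sp7 and Phex calls in STR/ort had folds of about 1.5 and were each lost without any of 10 libraries and with housekeeping scaling, Sp7 also with RLE and DESeq2 and Phex with 1 or 2 RUVg factors. Over the same interval the erythroid markers went from 2075 to 3357 CPM up to 3617 to 4751 CPM in C57BL/6, and in STR/ort the marrow neutrophil markers went from 7290 to 8611 CPM down to 4739 to 6767 CPM and the B cell markers from a mean of 248 to 113 CPM. In C57BL/6 the tendon and synovial markers went from 4267 to 5916 CPM down to 3539 to 4172 CPM, the fat markers from 554 to 714 CPM down to 355 to 491 CPM and the B cell markers from 155 to 195 CPM up to 204 to 276 CPM. None of these lists overlapped between the times. Their part was not tested.

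The 2-weeks values of Bglap stand apart from the rest of the series. In uninjured joints its mean was 41.2 CPM in MRL/MpJ, 71.0 CPM in C57BL/6 and 48.7 CPM in STR/ort, whereas the batch 1 means ran from 305 to 681 CPM in uninjured joints. Bglap2, whose transcript is identical to that of Bglap in 98.9% of 439 aligned positions, was higher in batch 2 within each strain, at 18.2, 28.7 and 22.1 CPM in those joints against batch 1 means of at most 13.3, 22.2 and 12.7 CPM. Bglap3 (96.4% identical to Bglap) averaged 0.292 CPM in MRL/MpJ and 0.264 CPM in C57BL/6 at 2-weeks but 4.52 CPM in STR/ort, after 1.95 to 5.05 CPM in the uninjured joints of batch 1. The copies lie within 15.85 kb of chromosome 3, and reads that match more than 1 of them cannot be placed with certainty. The level of Bglap is therefore uncertain across batches and also between strains within a batch. How reads split between the copies in each strain was not tested. Time, batch and read placement cannot be told apart here. Ibsp and Mepe were also lower in batch 2 by a smaller step. In uninjured joints the Ibsp means were 456 to 694 CPM against 795 to 2390 CPM in batch 1, and those of Mepe 32.3 to 75.1 CPM against 65.4 to 184 CPM. The Spp1 means of 657 to 877 CPM lay within the batch 1 range of 566 to 1541 CPM.

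**Figure D5:**
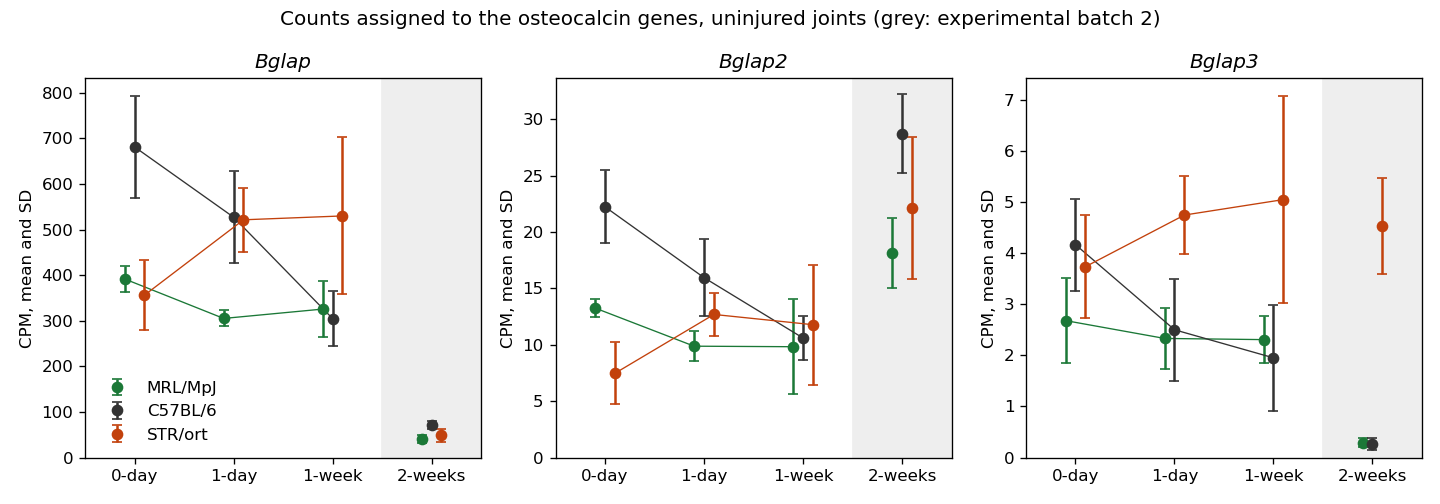
Mean and SD of CPM assigned to the 3 osteocalcin genes in uninjured joints (y axis from 0; x axis, time; lines join batch 1). Bglap is at 41.2 to 71.0 CPM at 2-weeks, where Bglap2 is at 18.2 to 28.7 CPM and Bglap3 differs between STR/ort (4.52 CPM) and the other strains (0.264 and 0.292 CPM).

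Within groups the genes varied together. After group means were subtracted from log2 CPM, the 36 pairs of the 9 genes other than Fgf23 had correlations from 0.280 (Bglap with Mepe) to 0.845 (Sost with Mepe) over 100 libraries, with a median of 0.583. These values describe libraries that share dissection, depth and batch, and carry no test. The gene outside the set most like their mean deviation among 14408 genes was Cdh11 (r = 0.845), and Sgms2 (0.817), Ptprz1 (0.817) and Ptgis (0.816) were among the next in order. The summed markers of cartilage (0.767), hypertrophic cartilage (0.758) and osteoclasts (0.742) followed the same deviation and those of fast muscle ran against it (-0.638). Libraries with more bone RNA in this sense also held more cartilage and osteoclast RNA and less muscle RNA.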

How the data were processed

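RNA-seq of whole knee joints was analysed from 1 deposited table of counts per gene (100 libraries, 17313 rows, 3 of them identical repeats that were dropped, leaving 17310 genes). By the submitters' processing notes and the study's methods, the authors aligned poly(A)-enriched reads to mm10 with TopHat2 2.0.11 and made the counts with featureCounts. The study then normalized with RUVSeq on housekeeping genes, and the deposited counts are whole numbers without that step. The strand setting of counting is not given in the sources used here.

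Here the counts were tested with edgeR 4.0.16 (quasi-likelihood, TMM scaling, R 4.3.3) in 1 fit per time point and 1 per strain over time within batch 1, in 48 comparisons. A call needs an adjusted p (Benjamini-Hochberg over all genes) below 0.05 and a fold above 1.5. The study's filter, at least 5 libraries with a count of 2 or more, removed 0 genes. CPM used TMM over all 100 libraries. Alternatives were RLE and housekeeping scaling, 1 or 2 RUVg factors from 25 housekeeping genes, DESeq2 1.42.0, other filters, a replicate block and leaving out each library. The fits were tested on simulated data. Library totals ran from 6182016 to 20986027 counts (median 10582591.5). Of 24 names that a spreadsheet had turned to dates none was used.

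The 10 genes are always named, and of 30 other bone genes up to 4 calls with the smallest adjusted p in a comparison, apart from items that are not reported here. The genes, the lists and the comparisons were chosen with earlier results of these data known. At 2-weeks same-numbered joints came from 1 animal by the labels (correlations of their deviations 0.183 to 0.271 in C57BL/6, 0.213 to 0.449 in STR/ort and -0.279 to 0.0824 in MRL/MpJ), and at 1-week every STR/ort pair was above 0.1 (0.162 to 0.370). Elsewhere samples shared a number alone. Where nothing says that joints came from separate animals, p-values measure the spread between these samples. Promoters are from RefSeq and gene positions from GENCODE, both on GRCm38.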

Additional observations from a re-analysis of the deposited data

Results flagged for a closer look

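Of 210 sets of 4 or 5 libraries (10 genes in 21 groups), 13 held 1 library farther from the rest than Dixon's test allows at 95%, and chance flags about 1 in 20. In injured MRL/MpJ joints at 2-weeks, replicate 4 was the lowest library in the 9 genes other than Fgf23 and stood apart by this test in 3, Bglap at 21.8 CPM (others 41.0 to 44.6), Mepe at 24.5 CPM (others 33.8 to 36.9) and Alpl at 48.0 CPM (others 72.8 to 74.4). It also held Ibsp at 286 CPM (others 452 to 531), Spp1 at 423 CPM (others 634 to 754), Phex at 34.9 CPM (others 51.3 to 65.5) and Sp7 at 11.0 CPM (others 19.7 to 24.8). The fast muscle markers of this group summed to 61321 to 132719 CPM. Replicate 1 of the uninjured C57BL/6 joints at 1-day was high in Bglap (702 CPM, others 451 to 515) and Phex (122 CPM, others 94.9 to 102). Uninjured STR/ort joints held a high Bglap in replicate 1 at 1-week (787 CPM, others 426 to 463), and at 1-day a low Phex in replicate 4 (72.5 CPM, others 122 to 135) and a high Mepe in replicate 5 (281 CPM, others 109 to 158). Single libraries also stood apart for Bglap at 0-day in MRL/MpJ (replicate 3, 349 CPM, others 404 to 408) and Ibsp at 2-weeks in uninjured C57BL/6 (replicate 3, 542 CPM, others 605 to 626). The same held for Sost at 1-day in injured C57BL/6 (replicate 3, 16.7 CPM, others 31.1 to 35.8), Phex at 1-week in injured MRL/MpJ (replicate 4, 77.4 CPM, others 50.5 to 57.3) and Spp1 at 1-week in uninjured MRL/MpJ (replicate 4, 738 CPM, others 501 to 520).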

How the results depend on the processing

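Of 116 calls, 42 were kept under every alternative and 92 in every fit that left out 1 library. RLE lost 1, housekeeping scaling 10 and DESeq2 3, while RUVg lost 60 with 1 factor and 62 with 2, chiefly strain calls of 1-day and 1-week. With 1 and 2 RUVg factors the calls between strains went from 47 to 17 and 24 in uninjured joints and from 37 to 20 and 18 in injured joints, and injury calls from 6 to 10 with 2 factors. Apart from the 17 in uninjured joints, the totals with factors include calls that the fit without factors did not make. The replicate block gave 3 interaction calls in place of 0 and 5 injury calls in place of 6, and is given with those results. Leaving out 1 library gave 6 to 12 calls at 0-day, 5 to 8 for injury, 44 to 48 and 34 to 38 for strain in uninjured and injured joints, 0 to 0 for interactions and 16 to 21 for time. Among the calls, signs turned under RUVg alone, and the cause was not tested. With 1 factor, STR/ort over C57BL/6 at 1-week gave Sost -0.074 in injured and Bglap -0.041 and Sp7 -0.32 in uninjured joints, and STR/ort over MRL/MpJ gave Alpl -0.070 and Sost -0.21 in injured and Bglap -0.27 and Sp7 -0.50 in uninjured joints. With 2 factors, C57BL/6 over MRL/MpJ at 0-day gave Alpl -0.73, Ibsp -0.52 and Sost -0.52. At 1-week STR/ort over C57BL/6 then gave Alpl -0.11, Dmp1 -0.0040 and Sost -0.16 in injured and Bglap -0.024 and Sp7 -0.24 in uninjured joints. STR/ort over MRL/MpJ gave Alpl -0.32, Mepe -0.46 and Sost -0.38 in injured and Alpl -0.046, Bglap -0.22, Dmp1 -0.17, Mepe -0.26, Phex -0.30 and Sp7 -0.26 in uninjured joints. A filter on low counts (filterByExpr) left Fgf23 tested at 1-week alone. Depth limits Fgf23 alone, at a median of 4 counts.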
